A study of Macaca mulatta with 51 samples.

Results

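Transcript levels of 10 genes of the vessel wall and its growth signals, VEGFA, VEGFB, KDR, FLT1, TEK, PECAM1, CDH5, ANGPT1, ANGPT2 and VWF, were followed in subcutaneous adipose tissue (AT) and gastrocnemius skeletal muscle (SM) of obese rhesus macaques. The genes were taken by symbol for their role in vessels, and the rule used no measured value, although earlier results of these data were known. Of the 10, 9 had counts here among 16033 genes, and all 9 passed the filter on low counts in AT and in SM. PECAM1 was not analysed here. The 10 animals, males and ovariectomized females aged 11 to 22 years, were non-diabetic and had been made obese by a high-fat diet. They received human FGF21, a secreted metabolic hormone, by daily injection for 12 weeks at doses raised from 10 to 1000 µg per kg, followed by 16 weeks without treatment. 1 animal was kept below the top dose. Punch biopsies came from before treatment (pre-treatment), from its last week (post-treatment) and from the end of the untreated period (washout). In that order there were 10, 9 and 8 AT libraries (10 animals) and 6, 8 and 7 SM libraries (8 animals). Every animal was treated, so FGF21, weight change, time and repeated biopsy cannot be told apart in these comparisons.

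Vascular endothelial growth factor A (VEGFA) drives vessel growth through the receptor KDR on endothelial cells, while FLT1 binds VEGFA tightly with weak signaling of its own and is also the receptor of VEGFB. ANGPT1 activates the endothelial receptor TEK and keeps vessels quiet, and ANGPT2 competes with it on the same receptor in a context-dependent way. CDH5 (VE-cadherin) holds endothelial cells together, and VWF is stored by them for hemostasis. In AT, adipocytes and stromal cells are known to produce VEGFA, and the fibers do so in SM. KDR, TEK, CDH5 and VWF mark the endothelium itself.

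Total counts per library ranged from 14455195 to 23940980. Levels are given as CPM, counts relative to the library total after TMM scaling within a tissue, and changes as log2 fold changes with their standard error (SE) from edgeR's quasi-likelihood test, with Benjamini-Hochberg adjustment over all genes of the tissue. Differentially expressed (DE) means that the adjusted p was under 0.05 and the log2 fold change larger than 0.26 in size. All 4 endothelial markers with counts, CDH5, VWF, KDR and TEK, were detected in each group, with summed medians of 953 to 1401 CPM in AT and 98.8 to 142 CPM in SM. In these bulk samples, fewer endothelial cells and less RNA per cell cannot be told apart. The SM post-treatment library of animal 21189 stood apart, with the lowest summed level of 9 muscle fiber markers (54510 CPM against a group median of 189900) and the highest of 10 progenitor and fibroblast markers (26470 against 3642). In AT, the post-treatment library of animal 20275 had the highest sum of 12 macrophage markers (14520 against 7215) and was the lowest of its group for VEGFA, VEGFB, FLT1, TEK and VWF. DE calls of the 9 genes that changed without these libraries, and several of the list counts that did, are given with and without them.

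In AT, VEGFA and CDH5 were highest and VEGFB lowest at washout, while ANGPT1 was lowest post-treatment. Compared to pre-treatment, 1 of the 9 genes was DE post-treatment, ANGPT1, which fell. Among all genes tested 15.5% were DE and 8.49% were DE and lower. Between post-treatment and washout 3 of the 9 were DE, VEGFA and CDH5 higher and VEGFB lower, against 35.4% of all genes, so the share was near that of all genes. These 3 were also DE, in the same directions, at washout compared to pre-treatment, where 20.5% of all genes were DE, 12.5% higher and 7.96% lower. Both washout comparisons use the same washout libraries. The medians of the 9 log2 fold changes were -0.07, 0.10 and 0.14 in these comparisons, beside 0.03, -0.00 and -0.02 over all genes.

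VEGFA (ENSG00000112715) was at 37.4 to 91.1 CPM in the 10 pre-treatment AT libraries, with a median of 60.7. Post-treatment it lay between 27.3 and 94.6 with a median of 48.7, and at washout between 69.2 and 210.7 with a median of 102. The post-treatment and washout libraries overlapped through animal 26292 alone, whose post-treatment value of 94.6 exceeded 3 washout values, while the next highest post-treatment value was 59.98. VEGFA was lower post-treatment in 7 of 9 animals, but the log2 fold change of -0.33 (SE 0.17, edgeR adjusted p = 0.179) did not pass the test. Without animal 26292 it was -0.51 and DE (edgeR adjusted p = 0.0263). VEGFA then rose to washout by a log2 fold change of 1.07 (SE 0.18, edgeR adjusted p = 0.000214), higher in 7 of 8 animals. Compared to pre-treatment, the washout level was higher by 0.74 (SE 0.18, edgeR adjusted p = 0.00457), in 8 of 8 animals. The share of all genes with the same direction in every animal was 15.8% there, 7.93% for the post-treatment change and 14.2% from post-treatment to washout.

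VEGFB (ENSG00000173511), which binds FLT1 and is linked to fatty acid handling, moved the other way at washout. Its AT level had a median of 198 CPM pre-treatment (range 172 to 269), 217 post-treatment (range 146 to 285) and 156 at washout (range 130 to 187). All post-treatment libraries except that of animal 20275, at 146 CPM, lay above all washout libraries. The post-treatment change of 0.07 (SE 0.11, edgeR adjusted p = 0.667) was smaller than the spread between animals. VEGFB then fell by 0.48 on the log2 scale from post-treatment to washout (SE 0.11, edgeR adjusted p = 0.00359), lower in 7 of 8 animals. Without the post-treatment library of animal 20275 this log2 fold change was -0.57 (edgeR adjusted p = 0.000235). At washout it was below its pre-treatment level in 8 of 8 animals, by a log2 fold change of -0.40 (SE 0.11, edgeR adjusted p = 0.0154). That call was lost without animal 26292 (edgeR adjusted p = 0.0501) and with scaling by library size only (0.0710), and over all alternatives the adjusted p ranged from 0.000844 to 0.0710.

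Neither VEGF receptor was DE in AT. KDR (ENSG00000128052), the main signaling receptor, was at 18.6 to 63.1 CPM pre-treatment (median 41.0), 24.8 to 68.3 post-treatment (median 51.3) and 23.3 to 78.3 at washout (median 55.7). The 3 groups overlapped over most of their range, although 7 of 9 animals were higher post-treatment and 6 of 8 higher at washout than pre-treatment. The corresponding log2 fold changes were 0.21 (95% interval -0.12 to 0.54) and 0.31 (95% interval -0.03 to 0.65). FLT1 (ENSG00000102755) ranged from 16.4 to 46.8 CPM pre-treatment (median 38.7), 17.2 to 49.0 post-treatment (median 29.3) and 23.6 to 46.6 at washout (median 29.2). Its log2 fold change was -0.07 post-treatment (95% interval -0.42 to 0.27) and -0.10 at washout compared to pre-treatment (95% interval -0.45 to 0.26). The direction of FLT1 changed with the scaling or the libraries used, and no direction is drawn for it.

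ANGPT1 (ENSG00000154188), the TEK agonist, was at 117 to 203 CPM in AT pre-treatment with a median of 158. Post-treatment it lay at 56.6 to 180 CPM with a median of 85.0, and 8 of 9 animals were lower than before. Only animal 20456 rose, from 122 to 180 CPM, and its library was the highest of the post-treatment group. Of the 9 post-treatment libraries 6 were below every pre-treatment library. The log2 fold change was -0.69 (SE 0.23, edgeR adjusted p = 0.0461), a 1.61-fold lower level. The fall kept its direction in 23 of 23 alternatives but its adjusted p, from 0.0130 to 0.138, was above 0.05 in 11 of them, among them those without the pre-treatment (0.0848) or post-treatment (0.0902) library of animal 20275. The others were those without animal 20261, 20275, 21189, 21866, 22130, 24849 or 26292, with no filter and with only the 2 time points. At washout ANGPT1 lay between 59.1 and 193 CPM (median 132), 0.45 above post-treatment on the log2 scale (SE 0.24, edgeR adjusted p = 0.150) and 0.24 below pre-treatment by the fit (log2 fold change -0.24, SE 0.23, edgeR adjusted p = 0.495). Without animal 23004 the rise from post-treatment was 0.65 and DE (edgeR adjusted p = 0.0314). All 8 animals with both samples were lower at washout than pre-treatment, by log2 differences of -1.05 to -0.03 with a median of -0.10.

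ANGPT2 (ENSG00000091879) and the shared receptor TEK (ENSG00000120156) were not DE in AT. ANGPT2 had wide groups, of 22.8 to 79.4, 28.3 to 95.1 and 34.0 to 87.7 CPM at the 3 time points, with medians of 57.6, 61.9 and 57.9. Its post-treatment log2 fold change was 0.25 (95% interval -0.07 to 0.57), higher in 6 of 9 animals. TEK was among the steadier genes, at 55.7 to 112 CPM pre-treatment (median 90.7), 60.6 to 158 post-treatment (median 95.8) and 62.2 to 104 at washout (median 91). Its coefficient of variation between animals was 18.7% pre-treatment, 32.5% post-treatment and 15.4% at washout. For TEK, log2 fold changes were 0.21 post-treatment (95% interval -0.07 to 0.50) and 0.03 at washout compared to pre-treatment (95% interval -0.27 to 0.33).

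The endothelial adhesion gene CDH5 (ENSG00000179776) was at 93.3 to 184 CPM pre-treatment in AT (median 158), at 70.8 to 229 post-treatment (median 126) and at 117 to 310 at washout (median 240). From post-treatment to washout it rose in 8 of 8 animals, by a log2 fold change of 0.64 (SE 0.15, edgeR adjusted p = 0.00355), a pattern of direction that 14.2% of all genes had. The groups still overlapped. Animal 26292 had the smallest such rise, and animal 21189 the largest, from 70.8 to 268 CPM. Compared to pre-treatment, CDH5 was higher at washout in 7 of 8 animals, by 0.52 (SE 0.15, edgeR adjusted p = 0.0197), and this call was lost without animal 20261, 22130 or 23004, with an adjusted p of up to 0.0723. The post-treatment change of -0.12 (SE 0.15, edgeR adjusted p = 0.591) was not distinguishable from 0. VWF (ENSG00000110799), the stored clotting factor, followed with wider spread, at 473 to 1014 CPM pre-treatment (median 791), 409 to 1064 post-treatment (median 668) and 463 to 1709 at washout (median 1009). It was 0.45 higher at washout than post-treatment (SE 0.21, edgeR adjusted p = 0.106) and 0.36 higher than pre-treatment (SE 0.21, edgeR adjusted p = 0.237), in 6 of 8 animals in each case, and was not DE. The first of these changes was DE without animal 24849 (0.57, edgeR adjusted p = 0.0420), without animal 26292 (0.57, edgeR adjusted p = 0.0411) and with the library series as a covariate (0.61, edgeR adjusted p = 0.0322).

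**Figure D1:**
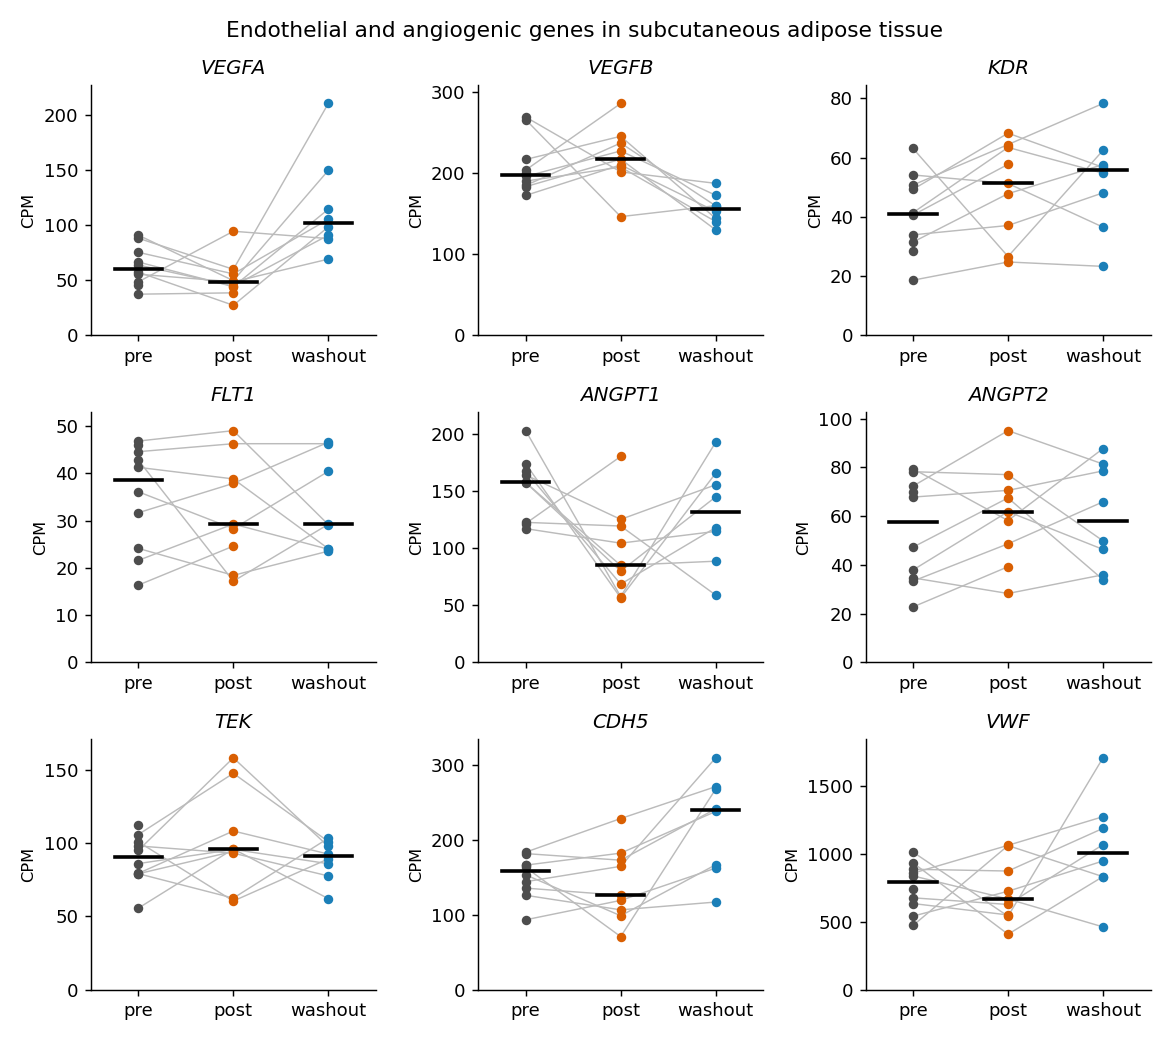
TMM-scaled CPM of the 9 genes in each AT library at the 3 time points; each point is an animal, grey lines join the samples of an animal, black bars are medians and every axis starts at 0. VEGFA and CDH5 sit highest at washout (medians 102 and 240 CPM), VEGFB lowest at washout (156 CPM) and ANGPT1 lowest post-treatment (85.0 CPM).

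The library identifiers of the submitters form 3 number series, and the labels do not say what they stand for. Counts of AT libraries in the first, middle and last series were 0, 3 and 7 pre-treatment and 0, 2 and 7 post-treatment. At washout they were 1, 3 and 4. Those of SM were 3, 1 and 2 pre-treatment, 5, 0 and 3 post-treatment and 0, 1 and 6 at washout. Series and time point were thus partly aligned in SM. Post-treatment to washout, VEGFA of AT was higher in 3 of 3 animals with both libraries in the last series (mean log2 difference 0.93) and in 4 of 5 animals with libraries in different series (mean 1.23). For CDH5 these were 3 of 3 (mean 0.93) and 5 of 5 (mean 0.50). VEGFB was lower in 3 of 3 (mean -0.59) and in 4 of 5 (mean -0.34). ANGPT1 was lower post-treatment in all 6 animals of the last series (mean -0.98), while the 2 animals of the middle series had a mean of 0.26, with 1 of the 2 higher. With the series in the model, each of the 7 DE calls in AT was kept.

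In SM, 0 of the 9 genes were DE in any of the 3 comparisons, where the DE share of all genes was 0% for the post-treatment change, 0.190% from post-treatment to washout (0.00793% lower) and 0.0634% for washout against pre-treatment. At an unadjusted p under 0.05, KDR, CDH5 and VWF were higher at washout than post-treatment, and FLT1 and VWF higher than pre-treatment. Of 12617 genes, 2181 and 1691 reached that level in these comparisons, and 410 did post-treatment, where none of the 9 genes was among them. With limma's voomWithQualityWeights, which the study used, VWF (log2 fold change 0.57, limma adjusted p = 0.0396) and ANGPT2 (-0.83, limma adjusted p = 0.0373) were DE at washout compared to pre-treatment, as were 674 of 12617 genes in that fit.

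KDR was low in SM, at 3.92 to 11.2 CPM pre-treatment (median 6.71), 2.95 to 8.58 post-treatment (median 5.17) and 6.11 to 14.3 at washout (median 7.89). The lowest of these values belonged to the post-treatment library of animal 21189 that stood apart, and the highest to the washout library of the same animal. KDR was higher at washout than post-treatment in 7 of 7 animals, a pattern that 6.71% of all genes had in either direction. Its log2 fold change was 0.80 (SE 0.27, unadjusted p = 0.0103, edgeR adjusted p = 0.174), and 0.62 without that post-treatment library (edgeR adjusted p = 0.344). With the library series as a covariate it was 1.44 and DE (edgeR adjusted p = 0.00587), in a fit that called 2650 of 12617 genes.

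FLT1 of SM had a median of 6.36 CPM pre-treatment (range 4.52 to 9.73), 8.36 post-treatment (range 3.23 to 12.8) and 11.2 at washout (range 7.61 to 15.2). It was higher at washout than pre-treatment in 5 of 6 animals, by a log2 fold change of 0.66 (SE 0.30, unadjusted p = 0.0457, edgeR adjusted p = 0.364). TEK was at 4.42 to 16.1, 4.62 to 19.9 and 6.34 to 25.9 CPM, with medians of 10.9, 10.1 and 12.8. Its washout log2 fold change against pre-treatment was 0.59, with a 95% interval from -0.11 to 1.28. The groups of both genes overlapped at every time point.

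CDH5 in SM was at 18.1 to 30.0 CPM pre-treatment (median 25.6), 15.8 to 41.0 post-treatment (median 22.6) and 19.9 to 45.2 at washout (median 31.1). The washout change against post-treatment was 0.45 on the log2 scale (SE 0.18, unadjusted p = 0.0207, edgeR adjusted p = 0.214), higher in 5 of 7 animals. VWF was at 54.0 to 94.0 CPM pre-treatment (median 66.9), 55.7 to 115 post-treatment (median 68.0) and 50.9 to 203 at washout (median 92.8). The highest VWF value, 203 CPM, came from the washout library of animal 22130, which also had the highest summed mural, lymphatic and macrophage markers of the washout group. VWF was higher at washout than pre-treatment in 5 of 6 animals, by a log2 fold change of 0.52 (SE 0.20, unadjusted p = 0.0219, edgeR adjusted p = 0.305).

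The growth factors of SM did not move together. VEGFA had a median of 90.5 CPM pre-treatment (range 61.6 to 216), 103.9 post-treatment (range 42.1 to 141) and 92.6 at washout (range 69.5 to 248.5). Animal 20275 had the highest value pre-treatment and at washout. The log2 fold changes of VEGFA were -0.05 (SE 0.20) post-treatment and 0.10 (SE 0.21) at washout compared to pre-treatment. VEGFB lay at 43.6 to 68.3, 52.6 to 79.7 and 47.9 to 87.2 CPM, with medians of 53.8, 64.3 and 55.9. ANGPT1 was at 7.17 to 20.98, 5.85 to 22.02 and 6.98 to 18.7 CPM (medians 9.84, 14.6 and 10.1), and ANGPT2 at 6.28 to 12.6, 3.998 to 12.2 and 2.83 to 12.3 CPM (medians 9.40, 7.85 and 6.36). ANGPT2 was lower at washout than pre-treatment in 5 of 6 animals (log2 fold change -0.56, 95% interval -1.15 to 0.04).

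**Figure D2:**
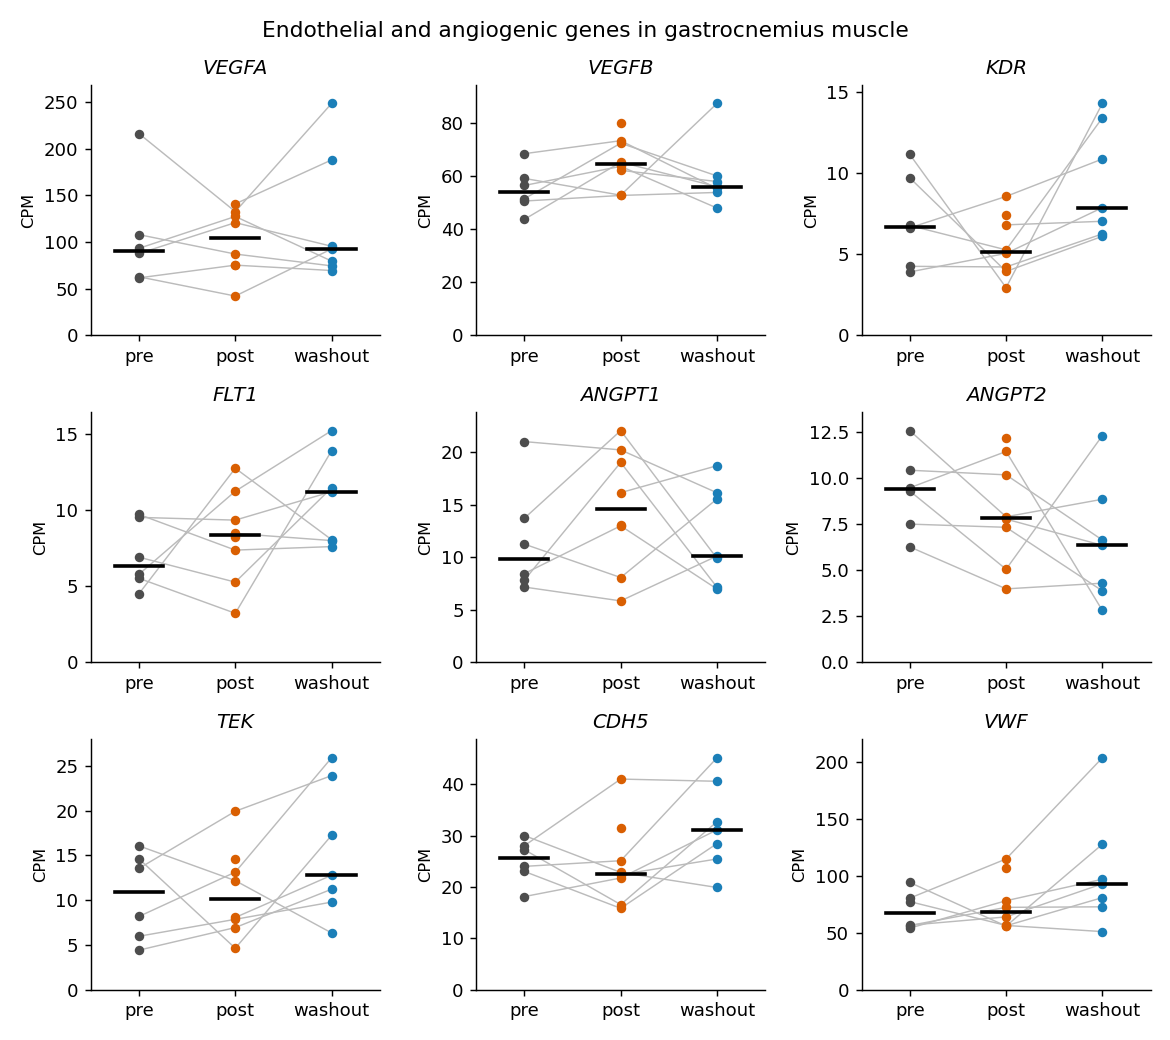
TMM-scaled CPM of the 9 genes in each SM library at the 3 time points; points are animals, grey lines join samples of an animal, black bars are medians and every axis starts at 0. The groups overlap for every gene, with washout medians of KDR, FLT1, TEK, CDH5 and VWF above the pre-treatment ones (7.89 against 6.71 CPM for KDR) and that of ANGPT2 below (6.36 against 9.40 CPM).

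**Figure D3:**
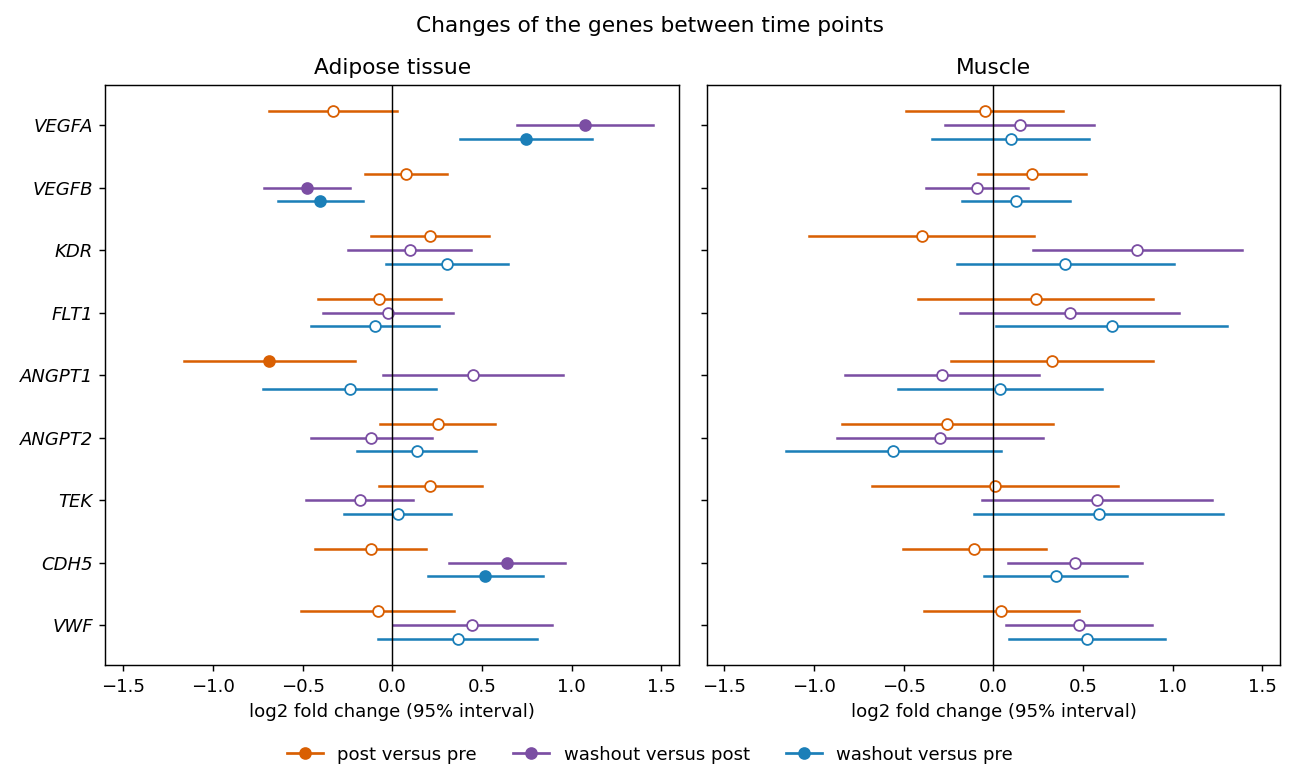
Log2 fold changes (horizontal axis) of the 9 genes with 95% intervals in AT (left) and SM (right) for the 3 comparisons of time points; filled symbols are DE. The 7 filled symbols are all in AT, with VEGFA at 1.07 and VEGFB at -0.48 from post-treatment to washout, and the SM intervals are wider except for VWF in both washout comparisons.

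Whether a gene changed differently in AT and SM was tested by the interaction of tissue and time point for 12322 genes, called when the adjusted p was under 0.05. For the post-treatment change 0 of the 9 genes passed (0.0487% of all genes). At an unadjusted p under 0.05, ANGPT1 alone of the 9 differed there, with the AT change lower than the SM change by a log2 difference of -1.06 (SE 0.36, edgeR adjusted p = 0.258), and 1306 of 12322 genes reached that level. From post-treatment to washout, VEGFA rose more in AT than in SM, by a log2 difference of 0.92 (SE 0.27, edgeR adjusted p = 0.0148), and was the only one of the 9 called, against 22.7% of all genes (11.9% with the AT change higher). The call was lost without animal 22130, 23004 or 24849 and without the animal in the model (0.89, edgeR adjusted p = 0.0862). For washout compared to pre-treatment VEGFB alone was called, with the AT change lower by a log2 difference of -0.59 (SE 0.18, edgeR adjusted p = 0.0189), against 17.5% of all genes (9.13% with the AT change higher and 8.38% lower). With scaling by library size only this difference was -0.34 (edgeR adjusted p = 0.243), a scaling that moved the median of all genes from -0.01 to 0.23. The call was also lost without animal 21189 (edgeR adjusted p = 0.0509) or 23004 (0.0595). Without animal 24849, TEK was called in both washout comparisons, with the AT change lower (-0.85 and -0.92, edgeR adjusted p = 0.0476 and 0.0376). For CDH5 the washout changes of the tissues differed by 0.18 (95% interval -0.30 to 0.66) and 0.11 (95% interval -0.38 to 0.61), and a difference between the tissues was not shown.

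Before treatment, the level of each of the 9 genes differed between the tissues, where 77.1% of all genes differed (41.8% higher and 35.3% lower in AT). On a scale common to all libraries, VEGFA was lower in AT, at 29.7 to 71.0 CPM (n = 10) against 84.9 to 290 CPM in SM (n = 6), with a log2 difference of AT against SM of -1.50 (SE 0.28, edgeR adjusted p = 8.55e-06). AT was below SM in 6 of 6 animals with both libraries, by ratios of 0.154 to 0.837. The other 8 genes were higher in AT in 6 of 6 animals. The largest difference was that of ANGPT1, at 91.1 to 158 CPM in AT against 9.92 to 28.1 in SM (log2 difference 2.96, SE 0.27, edgeR adjusted p = 4.85e-12), followed by VWF at 369 to 779 against 72.4 to 130 CPM (2.65, SE 0.24) and TEK at 43.8 to 87.3 against 5.71 to 22.1 CPM (2.32, SE 0.27). CDH5, ANGPT2, KDR, FLT1 and VEGFB were higher by log2 differences of 1.81, 1.75, 1.71, 1.48 and 1.14. The libraries of the tissues did not overlap for 7 of the 9 genes, as for 47.2% of all genes, and overlapped narrowly for KDR and FLT1. With scaling by library size only the log2 difference of VEGFA was -0.78 and that of the others 1.88 to 3.69, and the median of all genes moved from 0.16 to 0.90, so the sizes depend on the scaling while the directions did not.

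Further genes of vessels, from lists written from general knowledge with earlier results of these data known, were described by counts without a set test. Of 31 endothelial identity and junction genes, 2 were DE post-treatment in AT, both higher, a share no larger than the 6.98% of all genes: GJA5 (connexin 40; log2 fold change 0.47, SE 0.14) and the transcription factor FLI1 (0.45, SE 0.09). From post-treatment to washout 9 of the 31 were higher and 0 lower, where 17.6% of all genes were higher and 17.8% lower, and 28 of the 31 had a log2 fold change above 0 (median 0.24). Compared to pre-treatment 11 were higher and 0 lower at washout, where 12.5% of all genes were higher, with a median of 0.40. Among these 11 the largest changes were those of ARHGEF15 (1.18, from 32.1 ± 7.73 CPM, SD, n = 10, to 76.1 ± 31.8 CPM, n = 8), the transcription factor TAL1 (0.94, from 16.6 ± 7.20 to 31.97 ± 10.3 CPM) and the guidance receptor ROBO4 (0.88, from 63.8 ± 16.9 to 120.6 ± 34.9 CPM). Without the post-treatment library of animal 20275 the DE counts of this list were 1, 8 and 14.

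Notch and tip cell genes, which pattern sprouting vessels, also stood higher in AT at washout. Of 17, 8 were higher and 1 lower than post-treatment, where 17.6% of all genes were higher and 17.8% lower. Compared to pre-treatment 6 were higher and 0 lower, where 12.5% of all genes were higher and 7.96% lower. The medians of the 17 were 0.44 and 0.42. ESM1, a VEGF-responsive product of tip cells, rose from 1.69 ± 1.38 CPM post-treatment (SD, n = 9) to 7.07 ± 4.21 CPM at washout (n = 8), a log2 fold change of 2.28 (SE 0.34, edgeR adjusted p = 7.57e-05). NOTCH4 and the apelin receptor APLNR rose by 1.005 (SE 0.18) and 1.0 (SE 0.25) in that comparison, and the ligand DLL1 was 1.20 (SE 0.23) above pre-treatment. Post-treatment 1 of the 17 was higher, CXCR4 (0.86, SE 0.26), and 1 lower, the peptide ligand APLN (-0.73, SE 0.24). Of all genes, 6.98% were higher and 8.49% lower there. Without the post-treatment library of animal 20275, 0 of the 17 were DE in that comparison, and 6 were DE in each washout comparison.

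Other ligands and receptors of the VEGF family moved in both directions in AT. Of 6, VEGFD was higher (0.73, SE 0.21) and PGF, an FLT1 ligand, lower (-0.69, SE 0.17) post-treatment. From post-treatment to washout 3 were higher, led by FLT4, the VEGFC receptor (1.083, SE 0.21), and 2 lower, NRP2 (-1.62, SE 0.29) and VEGFD (-0.99, SE 0.23). FLT4 (1.11) and its ligand VEGFC (0.70, SE 0.17) were also above pre-treatment at washout, and NRP2 below (-0.93, SE 0.29). In the angiopoietin pathway TIE1, the partner receptor of TEK, was higher at washout than post-treatment (0.58, SE 0.13) and pre-treatment (0.66, SE 0.13), 1 of 3 genes tested. Of all genes, 17.6% were higher and 17.8% lower at washout than post-treatment. Compared to pre-treatment these shares were 12.5% and 7.96%. Of 15 angiogenesis inhibitors, 1 was higher and 3 lower post-treatment, with tenomodulin (TNMD) falling by 1.91 on the log2 scale (SE 0.34), VASH2 0.91 higher (SE 0.28) and SPARC falling by 0.54 on the log2 scale (SE 0.17), where 6.98% of all genes were higher and 8.49% lower. Without the post-treatment library of animal 20275, 2 of the 15 were DE post-treatment. From post-treatment to washout 4 of the 15 were higher and 3 lower. At washout compared to pre-treatment 1 was higher and 0 lower. In SM, 0 genes of these lists were DE in any comparison by edgeR, and by DESeq2, voomWithQualityWeights or with the library series as a covariate at most 4 of a list were.

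**Figure D4:**
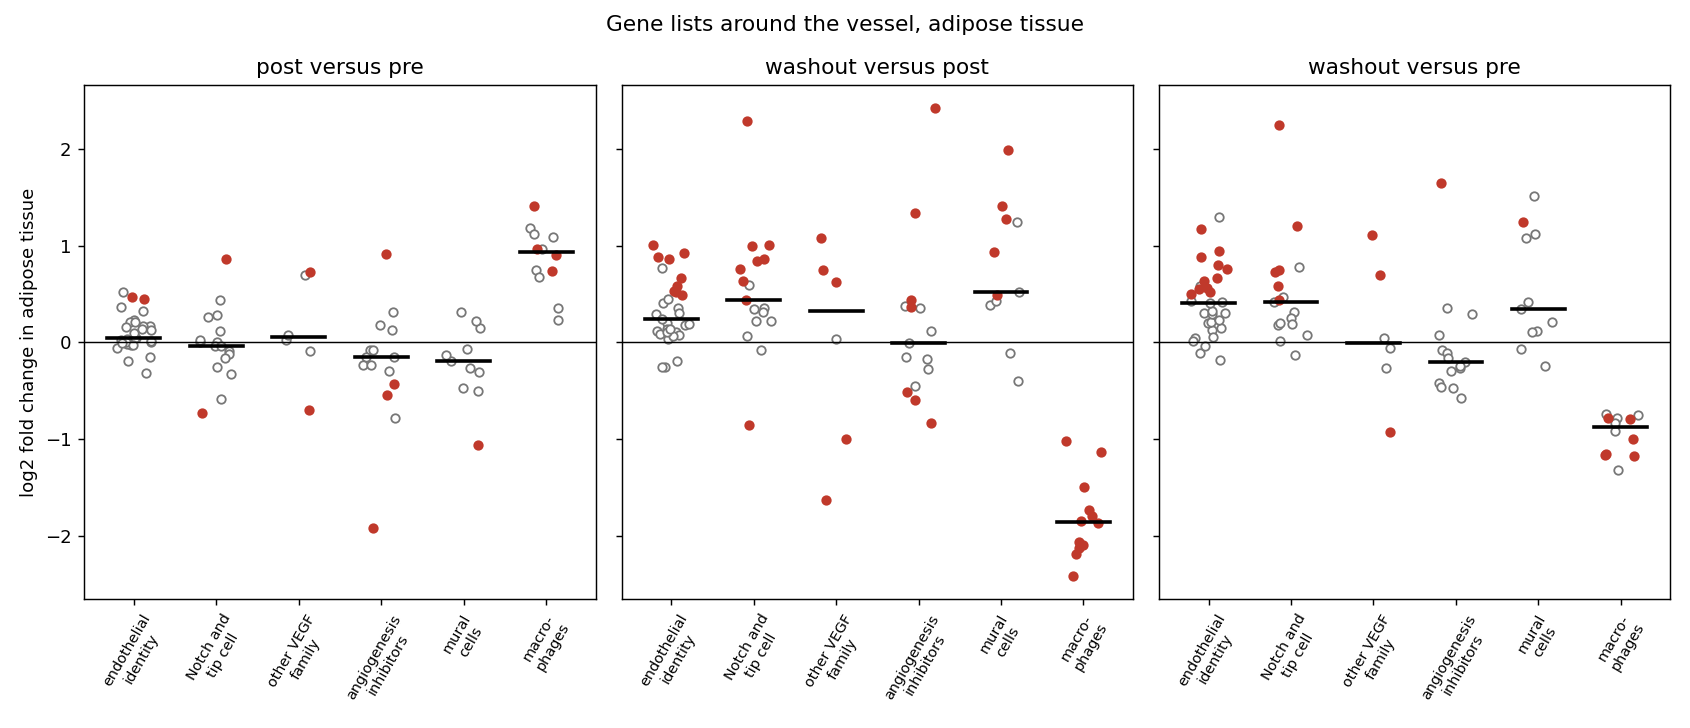
Log2 fold change in AT (vertical axis) of each tested gene of 6 lists for the 3 comparisons; red points are DE, open points are not, black bars are list medians. The endothelial identity list sits above 0 in both washout comparisons (medians 0.24 and 0.40), while the macrophage list is high post-treatment (0.93) and low at washout against post-treatment (-1.85).

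Markers of other cells moved in AT along with these genes. For comparison, 17.6% of all genes were DE and higher and 17.8% lower at washout than post-treatment. Between pre-treatment and post-treatment these shares were 6.98% and 8.49%. All 12 macrophage markers were DE and lower at washout than post-treatment, and their summed level went from 3374 to 14520 CPM post-treatment (median 7215) to 953 to 5231 CPM at washout (median 1486), against 1517 to 5396 CPM pre-treatment (median 3283). Of 11 mural cell markers, 5 were higher at washout than post-treatment and 0 lower. Their sum was 1240 to 2281 CPM post-treatment (median 1648) and 1392 to 4571 CPM at washout (median 2222), against 1477 to 2748 CPM pre-treatment (median 2187). Compared to pre-treatment, 1 of the 11 was higher at washout and 0 lower, where 12.5% of all genes were higher and 7.96% lower. Of 5 erythroid markers tested, 4 were higher at washout than post-treatment, but 1 without the post-treatment library of animal 20275. Their sums were 455 to 7647 CPM post-treatment (median 852) and 458 to 12000 CPM at washout (median 5111), against 327 to 10570 CPM pre-treatment (median 2678). Of 4 platelet markers tested, 3 were higher at washout than post-treatment. Their sums were 2.73 to 17.4 CPM post-treatment and 4.86 to 69.4 CPM at washout, against 2.38 to 33.8 CPM pre-treatment. The sum of 7 adipocyte markers was 14830 to 38600 CPM post-treatment and 15210 to 46370 CPM at washout, against 23410 to 49670 CPM pre-treatment, and post-treatment 3 of the 7 were DE and lower, against 1 DE without the post-treatment library of animal 20275. The 10 progenitor and fibroblast markers had sums of 16540 to 38770, 21990 to 56050 and 13400 to 46610 CPM at the 3 time points (medians 24390, 38390 and 22750). Of the 10, 3 were higher post-treatment and 0 lower, against 1 DE without the post-treatment library of animal 20275. From post-treatment to washout 5 were lower and 0 higher. The 7 lymphatic markers had sums of 124 to 689, 157 to 389 and 136 to 704 CPM at the 3 time points. Post-treatment 1 was higher and 0 lower. From post-treatment to washout 1 was higher and 1 lower (median log2 fold change 0.845). Compared to pre-treatment, 1 was higher and 0 lower at washout (median 1.026). Without the post-treatment library of animal 20275 these 3 comparisons had 0, 2 and 3 DE. The 9 muscle fiber markers summed to at most 188 CPM in AT and at least 54510 CPM in SM. The part of these cell types in the changes of VEGFA, VEGFB, CDH5 and ANGPT1 was not tested.

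Across libraries of a tissue, which share animals and time points, the endothelial genes varied together more closely in SM than the growth factors did. After removal of the mean of each animal, TEK and VWF had a Pearson r of 0.91 over the 21 SM libraries, KDR and CDH5 0.85, CDH5 and VWF 0.84, and FLT1 with these 4 genes 0.67 to 0.77. In the 27 AT libraries CDH5 and VWF had an r of 0.87 and KDR and CDH5 0.61, but CDH5 and TEK 0.38. VEGFA and CDH5 had an r of 0.57 in AT and 0.10 in SM, and VEGFB and CDH5 -0.46 in AT. ANGPT1 and ANGPT2 had an r of -0.43 in AT. The SM values include the post-treatment library of animal 21189, the lowest of its group for KDR, FLT1, TEK and VWF. They were not computed without it. All these values are descriptions without a test.

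**Figure D5:**
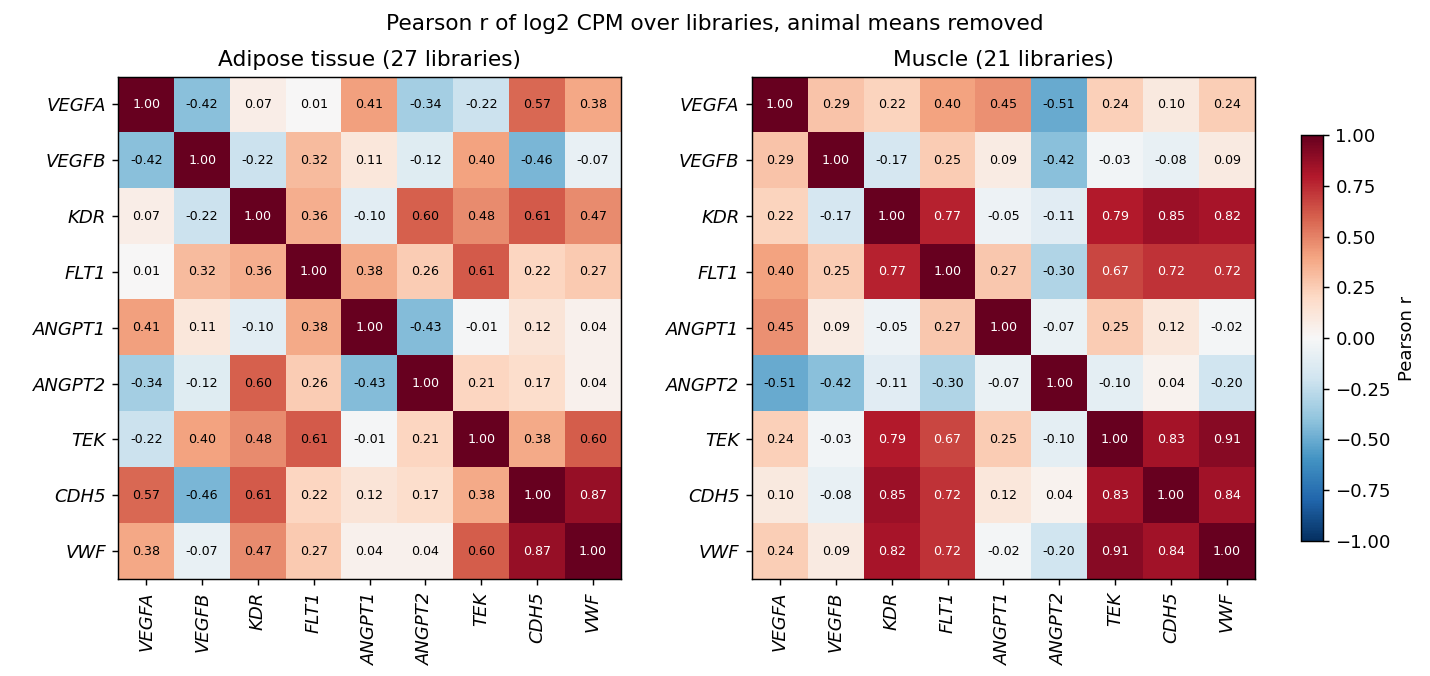
Pearson r between the log2 CPM of each pair of the 9 genes over AT libraries (left) and SM libraries (right), after removal of the animal means; red is positive and blue negative. In SM, KDR, FLT1, TEK, CDH5 and VWF form a block with r of 0.67 to 0.91, and in AT the highest value is 0.87, for CDH5 and VWF. All libraries are included, also the SM post-treatment library of animal 21189 that stood apart.

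The genes whose levels were most like those of CDH5 over the AT libraries were ROBO4 (r = 0.91), ERG (0.91) and MAPK11 (0.91), and CPNE5 (0.92), GIPC3 (0.92) and ROBO4 (0.92) after removal of the animal means. For TEK they were KALRN, S1PR1 and SHROOM4 (0.83, 0.82 and 0.80) and, without the animal means, SHROOM4, ADGRG6 and JAM2 (0.88, 0.83 and 0.83). VEGFA was most like RSAD1, DZIP1L and MLXIPL (0.82, 0.80 and 0.80), or HEXIM1, ANAPC5 and SLC7A6 (0.89, 0.88 and 0.87) without the animal means. ANGPT1 was most like BANK1, AP3M2 and PTGR2 (0.91, 0.89 and 0.88), or PLOD2, CAV2 and BANK1 (0.95, 0.94 and 0.94). In SM, CDH5 was most like CXorf36, TEK and MMRN2 (0.89, 0.88 and 0.88) and TEK most like TMTC2, CDH5 and ADAM15 (0.90, 0.88 and 0.87), so that each of the 2 was among the nearest genes of the other among 12592. Without the animal means CDH5 was nearest to MMRN2, RAPGEF5 and MALL (0.92, 0.92 and 0.91), and TEK to TMTC2, CAV1 and VWF (0.93, 0.93 and 0.91). VEGFA of SM was most like GNG7, FASTKD1 and PPARGC1A (0.84, 0.84 and 0.83), or MAP4K3, KLHL24 and SLC16A3 without the animal means (0.85, 0.84 and 0.82). ANGPT1 of SM was most like CCDC152, ESRRG and MUC15 (0.85, 0.81 and 0.79), or CBLL1, CGGBP1 and RAB2A (0.87, 0.85 and 0.82).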

How the data were processed

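Stranded mRNA libraries of AT and SM punch biopsies were sequenced, and the authors deposited whole-number counts per gene without normalization, from STAR alignments against the MacaM assembly. Of 51 labelled samples, 48 had counts (SM pre-treatment of animals 20456 and 21866 and SM washout of animal 21866 had none here), and 70 repeat entries of 16103 were dropped. Groups followed the labels for tissue and time point. Tests took genes reaching 0.5 CPM in 10% or more of a tissue's libraries, 13367 in AT and 12617 in SM. TMM scaling came from edgeR 4.0.16 (R 4.3.3), as did robust quasi-likelihood tests of time point and animal within each tissue, of the interaction over 12322 genes with animal nested in tissue, and of AT against SM before treatment over 13662 genes in a model of the 6 groups and animal. All tests were two-sided, and p-values were adjusted by Benjamini-Hochberg within each fit. Log2 CPM had a prior count of 2.

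Samples with the same animal number come from the same animal per the labels, so animal was a block. Deviations from time point means had a median correlation of 0.352 for the 25 AT pairs of 1 animal, against -0.035 for 217 other pairs, and in SM 0.279 over 19 pairs against -0.046 over 127. No pair of libraries in a group was a duplicate within counting noise. Fits were also run on simulated counts without an animal effect, with changes planted at post-treatment or in pre-treatment AT. These runs did not test the pairing by animal or the washout comparisons, and no result rests on them.

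The genes and lists were chosen with earlier results of these data known. Named are all genes of the set, from each list at most the 3 DE genes of at least 1 CPM with the largest changes per comparison, and the 3 genes most correlated with CDH5, TEK, VEGFA and ANGPT1. Alternatives were voomWithQualityWeights (limma 3.58.1), DESeq2 1.42.0, edgeR's earlier quasi-likelihood method, scaling by library size or DESeq2 size factors, no filter or a minimum of 10 counts in all libraries, a model without animal, fits to 2 time points alone, library series as a covariate, no fold limit, and each animal left out. Leaving out the post-treatment AT library of animal 20275 or SM library of animal 21189 was added after the data were seen. With animal in the model, the precision is set by the spread of the changes between animals and by counting noise.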

Additional observations from a re-analysis of the deposited data

Results flagged for a closer look

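In AT, the post-treatment VEGFA level of animal 26292, 94.58 CPM, lay far above the others of its group, of which the next was 59.98 CPM. In SM, animal 20275 stood apart in the same way for VEGFA pre-treatment, at 216.2 CPM against 107.9 CPM for the next library, and for VEGFB at washout, at 87.15 CPM against 59.92 CPM. A gap of this size relative to the range of the group (Dixon's limit at 95%) was looked for in 54 groups, and chance gives about 1 in 20.

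The change of VEGFA from post-treatment to washout differed between the tissues, with AT above SM by a log2 difference of 0.918 (edgeR interaction test, adjusted p = 0.0148). That of VEGFB from pre-treatment to washout differed by -0.589 (edgeR interaction test, adjusted p = 0.0189).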

How the results depend on the processing

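Of the 7 DE calls in AT, VEGFA at washout (both comparisons) and VEGFB and CDH5 from post-treatment to washout were kept under all alternatives, and the other 3 were lost under some, as given above. The post-treatment count in AT went from 1 to 0 with no filter, with only the 2 time points and without the post-treatment library of animal 20275, and was 0 to 1 with each animal left out. In SM, 2 genes were DE from post-treatment to washout with the library series as a covariate, and 2 at washout against pre-treatment with voomWithQualityWeights. The interaction counts were 4 (post-treatment to washout) and 3 (washout against pre-treatment) with the library series, where 4143 and 3833 of 12322 genes were called, 0 for the first of these without the animal block, and 0 to 1 and 0 to 2 with each animal left out. Beyond these, removing the block for animal, which pairs the samples, changed no count of the 9 genes by over 1.5 times. Library size scaling raised the share of higher calls among all genes in AT, to 2979 of 4729 from post-treatment to washout (2352 of 4731 with TMM) and to 2313 of 2903 against pre-treatment (1671 of 2735). The cause was not tested.

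Directions of changes that were not DE turned under some settings. With voomWithQualityWeights, the post-treatment values were 0.029 (FLT1, AT), 0.023 (VWF, AT), 0.123 (VEGFA, SM) and 0.005 (CDH5, SM). With library size only, FLT1 of AT was 0.05 and 0.011 in the washout comparisons, ANGPT1 of SM -0.028 at washout against pre-treatment, and the interaction 0.131 for VWF and 0.046 for KDR. With no replicate block, that is without pairing by animal, FLT1 was 0.03 from post-treatment to washout, TEK -0.007 at washout against pre-treatment in AT, and the VWF interaction 0.068. With only the 2 time points, FLT1 of AT was 0.037 and ANGPT1 of SM -0.025. With the library series, ANGPT2 of AT was 0.017 from post-treatment to washout and TEK of SM -0.026 post-treatment.

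With an animal or a library left out, post-treatment ranges that crossed 0 were -0.154 to 0.073 (FLT1) and -0.243 to 0.057 (VWF) in AT, and in SM -0.153 to 0.083 (VEGFA), -0.033 to 0.438 (FLT1), -0.112 to 0.321 (TEK), -0.214 to 0.045 (CDH5) and -0.044 to 0.224 (VWF). From post-treatment to washout they were -0.025 to 0.171 (KDR), -0.139 to 0.064 (FLT1) and -0.218 to 0.001 (ANGPT2) in AT and -0.014 to 0.289 (VEGFA) in SM. At washout against pre-treatment they were -0.206 to 0.028 (FLT1) and -0.051 to 0.112 (TEK) in AT and -0.056 to 0.155 (ANGPT1) in SM. For the interaction they were -0.082 to 0.37 (TEK), -0.206 to 0.136 (CDH5) and -0.478 to 0.055 (VWF) post-treatment, -0.122 to 0.083 (VWF) from post-treatment to washout, and -0.364 to 0.028 (KDR) and -0.052 to 0.212 (CDH5) at washout against pre-treatment. The libraries of 6 to 8 animals limit SM, where KDR and FLT1 reached at most 15.2 CPM.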

Other observations

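Before treatment, 28 of 31 endothelial identity and junction genes were DE and higher in AT than in SM, with a median log2 difference of 1.84, where 41.8% of all genes were higher. Pearson r with summed markers was taken over the 27 AT libraries, which share animals and time points, with the animal means kept. With macrophage markers it was -0.72 for CDH5, -0.67 for VEGFA, -0.63 for VWF and -0.57 for ANGPT1, but 0.29 for VEGFB. With mural markers it was 0.65 for VWF and 0.55 for CDH5. With adipocyte markers it was 0.63 for ANGPT1 and -0.60 for ANGPT2. These are descriptions without a test.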
